A study of Mus musculus with 8 samples.

Results

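The 40 genes described here are genes that endothelial cells, the cells that line blood vessels and the inside of the heart, are known to express. Every non-control spot whose gene name equalled 1 of the 40 symbols was taken, which gave 67 probes of the 41174 on the array. Of these, 53 probes of 39 genes were well above background on each of the 4 arrays of either group and were tested (20028 probes of 13949 genes in the whole series), and the lymphatic receptor gene Flt4 was the 1 gene without a tested probe. RNA came from the pSHF (posterior second heart field), a tissue whose mesenchyme lies dorsal to the heart and adds cells to its venous pole and atrial septum, dissected with attached foregut from mouse embryos at E9.5. Tbx5 is a T-box transcription factor of the heart and forelimb, and 4 RNA pools from embryos heterozygous for a Tbx5 mutation (Tbx5-/+) were compared with 4 pools from wild-type embryos (Tbx5 WT) to find transcripts that depend on its dose. Both groups came from mice of mixed genetic background whose dams had received gonadotropins to enlarge the litters, and the number of embryos in a pool was not given in the sources used here. The pools carried the embryo numbers 1, 5, 6 and 7 in both groups, and each pool was hybridized to 1 one-colour Agilent array. Values are log2 signals after variance stabilizing normalization (VSN), a difference is Tbx5-/+ minus Tbx5 WT on that scale, a gene is given on its brightest tested probe unless another probe is named, and 4 values of a group stand in the order of the numbers 1, 5, 6 and 7.

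Endothelial cells arise from mesoderm under the control of the ETS factor Etv2 and form tubes under vascular endothelial growth factor (VEGF), which acts through the receptor Kdr, while the decoy receptor Flt1 takes up the ligand. The Tie receptors and their angiopoietin ligands then stabilise the vessel, SoxF factors set arterial and lymphatic character, and Cdh5, Pecam1 and Cldn5 hold neighbouring cells together. In the pSHF the endothelium belongs to the vessels of the splanchnic mesenchyme and to the inflow of the heart, and its transcripts are measured here beside those of the mesenchyme and the foregut.

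The label was checked first. All 10 defining markers of endothelium, Pecam1, Cdh5, Kdr, Tek, Tie1, Emcn, Erg, Cldn5, Esam and Egfl7, had a probe that was well above background on all 8 arrays. The targeted gene had 2 probes. The brighter Tbx5 probe measured 11.47, 11.56, 10.42 and 11.54 in Tbx5 WT and 9.01, 9.73, 9.16 and 8.62 in Tbx5-/+ for embryo numbers 1, 5, 6 and 7. All 4 heterozygous arrays lay below all wild-type arrays on it (difference -2.12, limma adjusted p = 0.0917, or 0.0334 with embryo number as a block), whereas the dim Tbx5 probe differed by -0.15 and its groups overlapped. Of all spots, 45% to 52.8% were well above background on a heterozygous array and 50.9% to 63.6% on a wild-type array. The share was lower on the heterozygous array in every embryo number. The heterozygous array of number 6 stood farthest from the others on the first principal component, which held 56.9% of the variance. The median of the tested probes was lower on the heterozygous arrays (9.47 to 9.83) than on the wild-type arrays (9.89 to 10.06), so each difference is also read against the median difference of all genes, -0.13.

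More endothelial genes lay lower than higher in Tbx5-/+, at a share near that of all genes, and no single gene passed the unpaired test. Kdr, Sox17, Sox18, Tie1, Eng, Plvap and Nos3 were 1.90 to 2.40-fold lower. Of the 39 tested genes, 25 (64.1%, against 61.1% of all genes) had a difference below 0 and 14 above 0, from -1.26 (Sox18) to 0.62 (Tal1). The median of the 39 differences was -0.37, against -0.13 for all 13949 genes, and 23 of the 39 lay below the median of all genes. With 75th percentile scaling the median was -0.023 (all genes 0.18), and with array median centring -0.051 (all genes 0.19). With limma and Benjamini-Hochberg adjustment over all probes, 0 of the 39 genes were called (0% of all genes were called), and the smallest adjusted p of an endothelial probe was 0.0958 (0.0917 over all probes). At an unadjusted p under 0.05, 11 of the 39 genes, or 28.2%, were lower, where the background was 15.5% of all genes. At the same limit 0 of the 39 were higher, against a background of 4.06%. With 75th percentile scaling 3 of the 39 were lower and 2 higher, and with quantile normalization or array median centring 5 and 1. Lower probes over the whole array went from 3722 to 1725, 1878 and 1329 of 20028 under these 3 scalings. The 4 heterozygous arrays lay wholly below the 4 wild-type arrays for 7 of the 39 genes, Kdr, Nos3, Sox17, Tie1, Eng, Plvap and Tek, which is 17.9% against 7.69% of all genes. They lay wholly above them for 0 of the 39, against 0.918% of all genes. In bulk tissue, fewer endothelial cells and less RNA per endothelial cell cannot be told apart. Nothing in the sources said whether the pools shared litters, and the p-values measure only the spread between these pools.

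**Figure D1:**
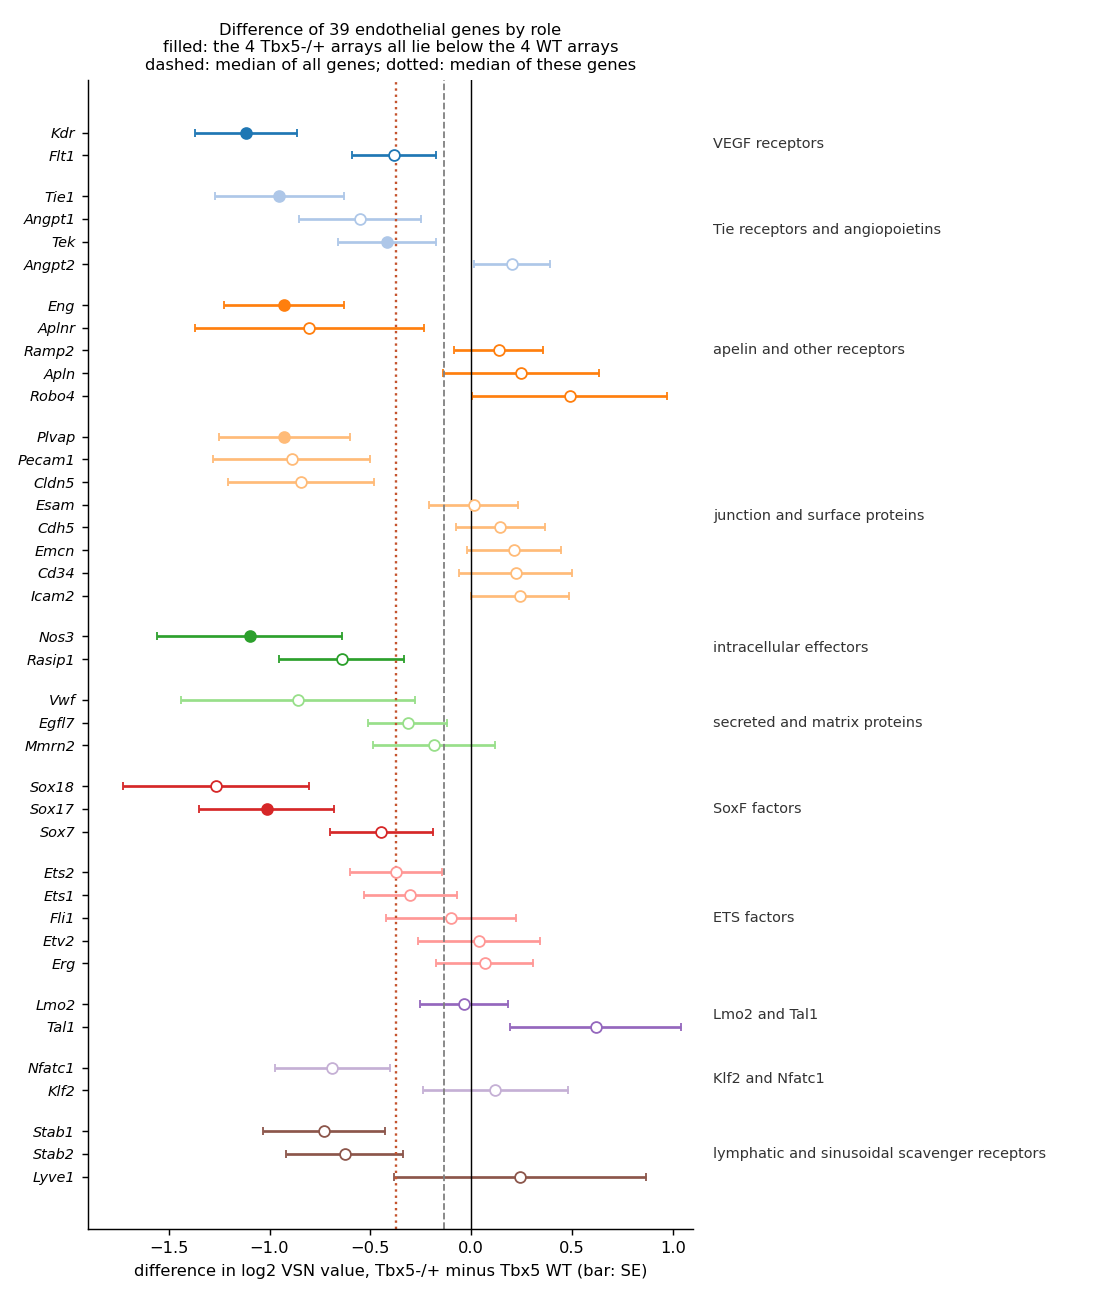
The difference in log2 VSN value (Tbx5-/+ minus Tbx5 WT, horizontal axis) of each of the 39 tested endothelial genes, grouped by role, with its standard error from limma as a bar (4 arrays a group). Filled points mark the 7 genes whose heterozygous arrays all lay below the wild-type arrays, and the dotted line, the median of the 39 genes at -0.37, lies to the left of the dashed line, the median of all genes at -0.13.

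The fit above treats the 8 pools as unpaired, as the study's methods do. Arrays that shared an embryo number deviated together from their group means (r = 0.44, 0.40, 0.59 and 0.14 for numbers 1, 5, 6 and 7), although the heterozygous array of number 7 correlated more with the wild-type array of number 6 (0.37), so the same test was also run with the number as a block. With this replicate block 4 of the 39 genes were called on their brightest probe, all of them lower: Kdr (adjusted p = 0.0345), Sox18 (adjusted p = 0.0427), Sox17 (adjusted p = 0.0451) and Eng (adjusted p = 0.0483). That is 10.3% of the endothelial genes, beside 8.32% of all genes called lower and 0.466% called higher, a share near the background. Counting every probe, 9 of the 53 endothelial probes were called lower with the block (17%, against 10.8% of all probes), and they belonged to 8 genes. The 5 called probes other than the brightest were the upstream probes of Sox7 (adjusted p = 0.0334), Angpt1 (adjusted p = 0.0388), Sox17 (adjusted p = 0.0399), Flt1 (adjusted p = 0.0412) and Ets1 (adjusted p = 0.0432). Of these, the Sox7 and Ets1 probes were well above background on 0 heterozygous arrays, the Angpt1 probe on 1 and the Sox17 probe on 3. All of these except Flt1 were tested only through the 4 wild-type arrays. For them the filter favoured a lower difference, so the 17% is not read as a result about the endothelial genes.

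Of the VEGF receptors, Kdr was lower in every heterozygous pool. Kdr encodes the main signalling receptor for VEGF. On its tested probe, at chr5:76329309-76329368 on the minus strand (mm9), Kdr measured 11.58, 12.03, 11.56 and 12.27 in Tbx5 WT for embryo numbers 1, 5, 6 and 7, and 11.08, 10.89, 10.21 and 10.79 in Tbx5-/+. The highest heterozygous value lay below the lowest wild-type value, and each heterozygous pool was below the wild-type pool of its number, with differences of -0.51 to -1.48. The group means were 10.74 ± 0.37 and 11.86 ± 0.35 (SD, n = 4), a difference of -1.12 (SE 0.253) or 2.17-fold lower in Tbx5-/+, with an adjusted p of 0.0958 by limma, and the exact two-sided permutation p was 0.0286, the smallest that 70 assignments of the arrays allow. The other Kdr probe, spotted 10 times, was below background on every array. Kdr was below 0 under all 21 other settings of the analysis, between -1.32 and -0.78. Flt1, the decoy receptor, measured 12.69, 12.98, 13.02 and 13.29 in Tbx5 WT and 12.42, 12.57, 12.98 and 12.47 in Tbx5-/+ for numbers 1, 5, 6 and 7. The groups overlapped through number 6, and the difference was -0.38 (SE 0.208, limma adjusted p = 0.285, exact permutation p = 0.0857). The Flt4 probe, for the receptor of lymphatic endothelium, was well above background on 0 heterozygous and 3 wild-type arrays and was not tested.

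Both Tie receptors lay lower in all 4 heterozygous pools. Tie1, an orphan receptor that modulates Tek, measured 9.73, 9.72, 9.52 and 9.87 in Tbx5 WT and 9.15, 9.37, 7.78 and 8.73 in Tbx5-/+. The heterozygous value of number 6 was by far the lowest, and without that array the difference was -0.63 in place of -0.95. With all arrays the difference had an SE of 0.321 and an adjusted p of 0.178 by limma, and the groups did not overlap (1.93-fold lower, exact permutation p = 0.0286). Tek, the receptor for the angiopoietins, measured 11.44, 10.59, 10.61 and 10.60 in Tbx5 WT and 10.05, 10.53, 10.54 and 10.45 in Tbx5-/+. The groups did not overlap, yet 3 of the 4 pairs of arrays differed by -0.062 to -0.15, and number 1 alone by -1.39. The Tek difference of -0.42 (limma adjusted p = 0.309, exact permutation p = 0.0286) became -0.21 without the wild-type array of number 1. Of the ligands, Angpt2, which antagonises Tek in many settings, measured 9.75, 9.59, 9.85 and 9.31 in Tbx5 WT and 9.79, 9.80, 10.02 and 9.70 in Tbx5-/+. Angpt2 was higher in every pair, by a mean of 0.20 (SE 0.188, limma adjusted p = 0.512), less than its SD of 0.24 in the wild-type group. Angpt1, the activating ligand made mostly by perivascular cells, differed by -0.55 (limma adjusted p = 0.285) and lay lower in all 4 pairs, but by -0.25 without the wild-type array of number 1, at 8.79.

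The other receptors went in both directions. Eng, a coreceptor for BMP9 and TGF-beta ligands, measured 10.07, 9.68, 9.72 and 10.05 in Tbx5 WT and 9.25, 9.40, 8.05 and 9.09 in Tbx5-/+. Every heterozygous value was below every wild-type value, with a difference of -0.93 (SE 0.297, 1.90-fold lower, limma adjusted p = 0.165, exact permutation p = 0.0286). The Eng pair of number 6 differed most, by -1.67, and the other pairs by -0.28 to -0.96. Robo4, a receptor that stabilises endothelial junctions, measured 11.19, 12.12, 12.51 and 12.22 in Tbx5 WT and 10.97, 12.93, 13.10 and 13.01 in Tbx5-/+. In numbers 5, 6 and 7 the heterozygous pool was higher by 0.59 to 0.80, in number 1 the difference was -0.23, and over all arrays the difference was 0.49 (SE 0.484, limma adjusted p = 0.544, exact permutation p = 0.40). Without the heterozygous array of number 1 Robo4 was called higher (1.00, limma adjusted p = 0.0486), in a fit that called 8.53% of all genes higher and 9.05% lower. Aplnr, the apelin receptor of venous and migrating endothelium, differed by -0.80 with an adjusted p of 0.392 by limma (-0.20 without the heterozygous array of number 6, at 8.49, and -1.23 without that of number 1), its ligand Apln by 0.25 and the calcitonin receptor partner Ramp2 by 0.14, and the groups overlapped for all 3.

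The 7 genes without overlap include both transmembrane receptors and an enzyme, and the sequences before their start sites are shown for those of them that have an entry, together with Robo4, which lay above 0. The promoters were read from RefSeq on GRCm38.p6, where 20 of the 40 genes had an entry, and only the 250 bases upstream of the start are printed, 5′ to 3′ on the strand of the gene. Capitals mark an ETS motif (CAGGAAG or CCGGAAG) or an E-box (CAGATG) on either strand, and no match overlapped another in these windows. They are chr5:75978456-75978705 (minus strand) for Kdr, chr4:118489850-118490099 (minus) for Tie1, chr4:94739039-94739288 (plus) for Tek, chr2:32646345-32646594 (plus) for Eng and chr9:37401722-37401971 (plus) for Robo4.
Kdr: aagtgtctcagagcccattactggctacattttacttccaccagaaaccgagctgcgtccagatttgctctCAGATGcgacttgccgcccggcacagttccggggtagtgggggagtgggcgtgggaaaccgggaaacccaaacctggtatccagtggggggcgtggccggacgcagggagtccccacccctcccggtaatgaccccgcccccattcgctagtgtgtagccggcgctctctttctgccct
Tie1: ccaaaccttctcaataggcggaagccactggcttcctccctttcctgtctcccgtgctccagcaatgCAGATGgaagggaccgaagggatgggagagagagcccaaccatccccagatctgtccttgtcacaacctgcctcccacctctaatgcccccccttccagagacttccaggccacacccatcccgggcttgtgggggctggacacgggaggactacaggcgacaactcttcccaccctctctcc
Tek: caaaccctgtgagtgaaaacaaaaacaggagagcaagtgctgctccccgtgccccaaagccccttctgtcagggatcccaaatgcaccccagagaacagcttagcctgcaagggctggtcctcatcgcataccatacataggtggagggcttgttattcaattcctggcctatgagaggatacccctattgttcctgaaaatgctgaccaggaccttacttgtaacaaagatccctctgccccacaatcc
Eng: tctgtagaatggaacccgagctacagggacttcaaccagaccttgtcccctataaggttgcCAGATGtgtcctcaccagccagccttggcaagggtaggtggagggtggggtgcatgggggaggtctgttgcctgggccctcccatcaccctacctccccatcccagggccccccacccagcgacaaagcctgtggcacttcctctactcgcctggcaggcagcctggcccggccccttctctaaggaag
Robo4: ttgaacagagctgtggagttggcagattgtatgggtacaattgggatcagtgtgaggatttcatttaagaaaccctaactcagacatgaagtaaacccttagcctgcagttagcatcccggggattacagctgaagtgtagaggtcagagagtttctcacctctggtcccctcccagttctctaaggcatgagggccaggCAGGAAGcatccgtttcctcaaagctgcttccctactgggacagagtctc
The E-box stood in the Kdr, Tie1 and Eng windows, at -179, -183 and -189 from the start, in the Tek window none of the searched motifs was found, and the ETS motif stood at -50 in Robo4, counted to the first base of each match. Over the 20 genes with an entry, 8 held an ETS motif (40%, against 19% of all genes in the table) and 5 held the E-box (25%, against 16.3%). The T-box motif AGGTGTG was found for 1 of the 20, Erg (5%, against 5.88%). A match of this kind is a run of letters, and binding was not measured here.

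Junction and surface proteins divided into 2 sets. Pecam1, an adhesion molecule of all endothelium, measured 9.47, 9.27, 8.83 and 9.18 in Tbx5 WT and 8.82, 8.86, 7.01 and 8.51 in Tbx5-/+. Each heterozygous pool differed from its partner by -0.42 to -1.82, the groups overlapped by 1 value, and the difference was -0.89 (SE 0.389, limma adjusted p = 0.223, exact permutation p = 0.0571), or -0.46 without the heterozygous array of number 6. Plvap, the protein of the diaphragms of fenestrae and caveolae, measured 12.16, 12.45, 12.09 and 12.55 in Tbx5 WT and 11.85, 11.84, 10.37 and 11.49 in Tbx5-/+. It lay lower in all heterozygous pools without overlap (difference -0.93, 1.90-fold lower, limma adjusted p = 0.186, exact permutation p = 0.0286), or -0.59 without the heterozygous array of number 6. Cldn5, the main tight junction protein of endothelium, measured 11.85, 12.45, 11.80 and 12.62 against 11.62, 11.95, 10.30 and 11.47 and differed by -0.84 (SE 0.361, limma adjusted p = 0.218), with overlapping groups, or by -0.50 without the heterozygous array of number 6.

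In the same class, Cdh5, the cadherin of endothelial junctions, measured 11.17, 10.89, 11.33 and 10.97 in Tbx5 WT and 10.75, 11.33, 11.29 and 11.57 in Tbx5-/+. Its values crossed between the groups, higher in numbers 5 and 7 and lower in 1 and 6, and the difference was 0.14 (SE 0.220, limma adjusted p = 0.699, exact permutation p = 0.543). Emcn, a sialomucin of venous and capillary endothelium, measured 12.55, 13.00, 12.81 and 13.05 against 12.55, 13.00, 13.27 and 13.43, a difference of 0.21 (SE 0.233, limma adjusted p = 0.588, exact permutation p = 0.429). Icam2, an adhesion molecule for leukocytes, measured 11.81, 11.68, 12.24 and 11.94 against 11.54, 12.45, 12.31 and 12.34, a difference of 0.24 (SE 0.244, limma adjusted p = 0.549). The sialomucin Cd34, shared with blood progenitors, differed by 0.22 and the junction protein Esam by 0.012. So 3 of the 8 tested genes of the class lay at or below -0.84 and 5 lay between 0.012 and 0.24. With array weights Cdh5 (0.43, limma adjusted p = 0.0425) and Cd34 (0.46, limma adjusted p = 0.0432) were called higher. That fit called 15.3% of all genes higher, and with the signal gap between 3′ and 5′ probes, described below, as a covariate Cdh5 was -0.014 and Cd34 -0.11.

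**Figure D2:**
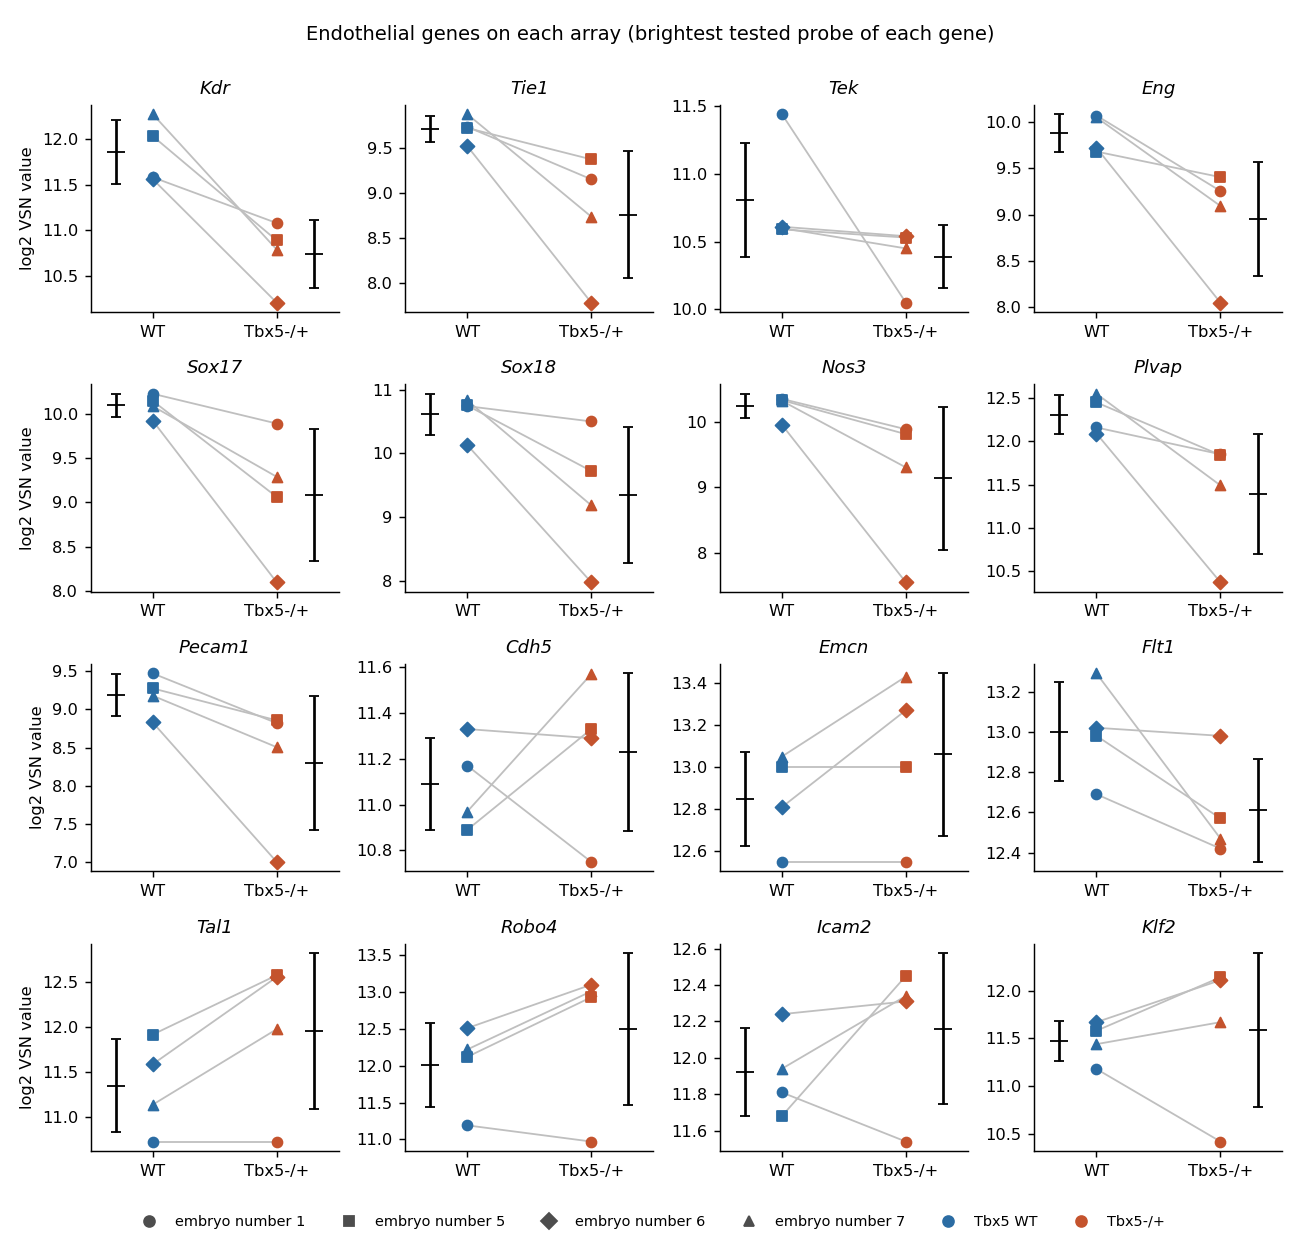
The log2 VSN value (vertical axis, each panel with its own range) of 16 endothelial genes on each array, with Tbx5 WT in blue and Tbx5-/+ in orange, the marker showing the embryo number, grey lines joining arrays of 1 number, and black bars giving the group mean and SD (n = 4). Kdr, Tie1, Eng, Sox17 and Plvap lay lower on every heterozygous array, Cdh5 and Emcn did not, and the heterozygous array of number 6 was the lowest for Nos3 (7.55) and Sox18 (7.98).

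The effectors inside the cell were lower in value. Nos3, the endothelial nitric oxide synthase, measured 10.35, 10.33, 9.96 and 10.32 in Tbx5 WT and 9.89, 9.81, 7.55 and 9.31 in Tbx5-/+. Its groups did not overlap (difference -1.10, SE 0.458, 2.14-fold lower, limma adjusted p = 0.215, exact permutation p = 0.0286), and 1 array carried much of the size, since without the heterozygous array of number 6 the difference was -0.57. Rasip1, needed for vascular lumen formation, differed by -0.64 (limma adjusted p = 0.246), or -0.41 without that array. Of the secreted proteins, the clotting factor Vwf differed by -0.86 (-1.40 and -0.55 without the wild-type or the heterozygous array of number 1), the matrix protein Egfl7 by -0.31 (-0.20 without the heterozygous array of number 6) and Mmrn2 by -0.18, and none of these 3 passed an unadjusted p of 0.05. For Vwf both arrays of number 1 were low (10.42 in Tbx5 WT, 10.27 in Tbx5-/+), and the other wild-type arrays lay between 12.26 and 12.87.

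All 3 SoxF factors, which act redundantly in arterial and lymphatic specification, lay below 0, with a median of -1.01. Sox18 had the lowest difference of all 39 genes. It measured 10.74, 10.75, 10.13 and 10.83 in Tbx5 WT and 10.50, 9.72, 7.98 and 9.19 in Tbx5-/+. The heterozygous value of number 1 lay above the wild-type value of number 6, so the groups overlapped, with a difference of -1.26 (SE 0.460, 2.40-fold lower, limma adjusted p = 0.193, exact permutation p = 0.0571), or -0.81 without the heterozygous array of number 6. Sox17 measured 10.23, 10.15, 9.93 and 10.09 in Tbx5 WT and 9.89, 9.06, 8.10 and 9.29 in Tbx5-/+. The groups of Sox17 did not overlap by a narrow margin, with a difference of -1.01 (SE 0.334, 2.02-fold lower, limma adjusted p = 0.171, exact permutation p = 0.0286). Its pair of number 6 differed most, by -1.83, and the other pairs by -0.34 to -1.08. Sox7 differed by -0.45 (limma adjusted p = 0.305), with overlapping groups, or by -0.29 without the heterozygous array of number 1. A second Sox7 probe was above background on all 4 wild-type arrays and on 0 heterozygous arrays, and was at least 1.74-fold lower in Tbx5-/+ (limma adjusted p = 0.122). A bound of this kind sets the mean of the brighter group against, on each array of the other, the higher of the dimmest signal well above background and the probe's own value.

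Of the other transcription factors, the ETS factors and Lmo2 lay between -0.37 and 0.067 on their brightest probes, while Nfatc1 lay at -0.69 and Tal1 at 0.62. Etv2, the early inducer of the endothelial and blood lineages, measured 10.24, 9.44, 10.22 and 10.17 in Tbx5 WT and 10.85, 9.70, 9.84 and 9.83 in Tbx5-/+. Its difference of 0.039 (SE 0.301, limma adjusted p = 0.946) turned to -0.23 without the heterozygous array of number 1. The ETS factors Ets2 (-0.37), Ets1 (-0.30), Fli1 (-0.10) and Erg (0.067) gave adjusted p-values of 0.328 to 0.879 by limma, and without the heterozygous array of number 6 Ets2 was at -0.17 and Ets1 at -0.18. Ets1 measured 12.06, 12.68, 12.58 and 12.78 in Tbx5 WT and 12.10, 12.55, 11.87 and 12.38 in Tbx5-/+. Fli1 measured 12.25, 13.30, 13.31 and 13.31 against 12.38, 13.33, 12.68 and 13.37. Both were low on the 2 arrays of number 1 and on the heterozygous array of number 6. Lmo2, the bridging cofactor of Tal1, differed by -0.035. Tal1, which drives blood and endothelial fate in early mesoderm, measured 10.73, 11.92, 11.59 and 11.14 in Tbx5 WT and 10.73, 12.58, 12.56 and 11.98 in Tbx5-/+. Tal1 was higher by 0.66 to 0.97 in numbers 5, 6 and 7 and the same to 2 decimals in number 1, a difference of 0.62 (SE 0.424, 1.53-fold higher, limma adjusted p = 0.379, exact permutation p = 0.257), and it was called higher without the heterozygous array of number 1 (1.03, limma adjusted p = 0.0477). Klf2, the flow-induced factor, measured 11.18, 11.58, 11.67 and 11.44 against 10.42, 12.14, 12.11 and 11.67, a difference of 0.12 (SE 0.360, limma adjusted p = 0.855). Nfatc1, a factor of endocardium and valves, measured 7.10, 6.96, 7.20 and 7.10 against 7.24, 6.38, 6.15 and 5.82, a difference of -0.69 (SE 0.286, limma adjusted p = 0.213), but its probe was well above background on only 2 of the 4 heterozygous arrays. Among the scavenger receptors of lymphatic and sinusoidal endothelium, Stab1 measured 11.84, 12.20, 11.89 and 12.55 against 11.17, 11.88, 10.67 and 11.84 and differed by -0.73 (limma adjusted p = 0.213), Stab2 differed by -0.63 (-0.36 without the heterozygous array of number 1), and Lyve1 by 0.24 with values from 5.86 to 8.99 in Tbx5-/+.

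Probes of 1 gene did not always agree. Of the 11 endothelial genes with at least 2 tested probes at different places, the probe nearer the 5′ end of the transcript gave a lower difference than the probe nearer the 3′ end in 10, all but Apln. Across the array this held for 68.4% of 4615 genes, with a median gap between the differences of -0.20. Between the most upstream and the most downstream tested probe of each gene, Flt1 and Fli1 gave the widest gaps of the 11. The first 30 of the 60 bases of each of these 2 pairs are shown in order to identify them.
Flt1, 5′ probe: caccaagctttgatggcattcaaagatgtc
Flt1, 3′ probe: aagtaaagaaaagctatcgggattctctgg
Fli1, 5′ probe: ttctggctgaagttccagctctcactttac
Fli1, 3′ probe: ttttcaggtaatcgtgactttttaaacgat
The upstream Flt1 probe (chr5:148449781-148449840, minus strand, mm9) measured 9.85, 10.22, 10.01 and 10.51 in Tbx5 WT and 9.74, 8.46, 7.07 and 8.52 in Tbx5-/+, without overlap. Its difference was -1.70 (limma adjusted p = 0.124), against -0.38 on the 3′ probe (chr5:148373791-148373850, minus strand, mm9), and within embryo number 1 it was -0.11. The upstream Fli1 probe differed by -1.21 (limma adjusted p = 0.138), against -0.10 on the 3′ probe, and was higher in Tbx5-/+ by 0.28 within number 1. The most upstream Ets1 probe was above background on 0 heterozygous arrays and at least 1.55-fold lower there (limma adjusted p = 0.155), and the probe overlapping it differed by -1.72, against -0.30 on the brightest probe. The upstream probe of Klf2 differed by -0.66 against 0.12, and that of Cdh5 by -0.49 against 0.14. So for Flt1, Fli1, Ets1, Klf2 and Cdh5 the size, and for the last 2 the sign, depended on the probe.

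The signal gap between the 3′ and the 5′ probe of a gene, a measure that rises as RNA shortens or as labelling reaches less far from the 3′ end, was taken as the median over 1720 genes on each array. It was 0.79, 1.03, 1.09 and 1.00 in Tbx5 WT and 0.83, 1.14, 1.36 and 1.25 in Tbx5-/+ for embryo numbers 1, 5, 6 and 7. The heterozygous array had the larger gap in all 4 numbers, most in 6 and 7 and least in 1, and the groups overlapped (mean 1.15 against 0.98, exact two-sided permutation p = 0.257). With the gap as a covariate the differences were -0.97 for Kdr, -0.66 for Tie1, -0.67 for Sox18 and -0.61 for Nos3 (median of all genes -0.16). Within number 1, where the gaps were closest, the difference was -0.51 for Kdr, -0.58 for Tie1, -0.81 for Eng, -0.46 for Nos3 and -0.24 for Sox18. All genes had a median of -0.28 in number 1, where 82.8% of them lay below 0.

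**Figure D3:**
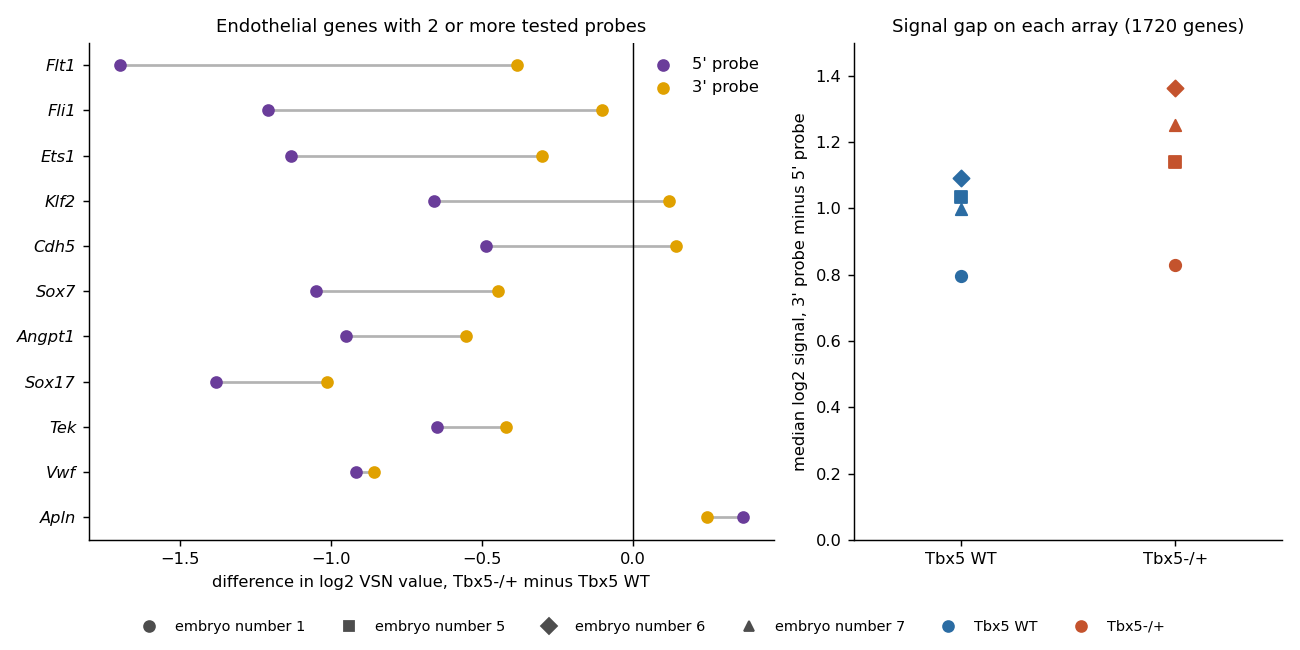
Left, the difference in log2 VSN value (Tbx5-/+ minus Tbx5 WT) on the 5′ probe and the 3′ probe of the 11 endothelial genes with at least 2 tested probes; the 5′ point lies to the left for 10 of them. Right, the median log2 signal gap between 3′ and 5′ probes over 1720 genes on each array, from 0.79 to 1.09 in Tbx5 WT and from 0.83 to 1.36 in Tbx5-/+.

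Within the embryo numbers the endothelial genes did not move to the same extent. The median difference of the 39 genes was -0.27 in number 1, where all genes had a median of -0.28, and 0.00093 in number 5, where all genes had -0.023. It was -0.63 in number 6 against -0.12 for all genes, and -0.34 in number 7 against -0.10. So the endothelial median stood apart from that of all genes in numbers 6 and 7 and lay beside it in 1 and 5. By the sample titles, numbers 1 and 5 were on an array 1 and numbers 6 and 7 on an array 2, and within the first the endothelial median was -0.20 (all genes -0.15) and within the second -0.42 (all genes -0.11). Without the heterozygous array of number 6, the endothelial median minus that of all genes was -0.082 in place of -0.24. At the level of single genes, 17 of the 39 (43.6%) were lower in all 4 pairs, against 32.1% of all genes. They included Kdr, Tie1, Tek, Eng, Pecam1, Cldn5, Plvap, Nos3, Sox7, Sox17 and Sox18. Angpt2, Apln and Tal1 were higher in all 4 pairs, 7.69% of the 39 beside 4.37% of all genes.

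**Figure D4:**
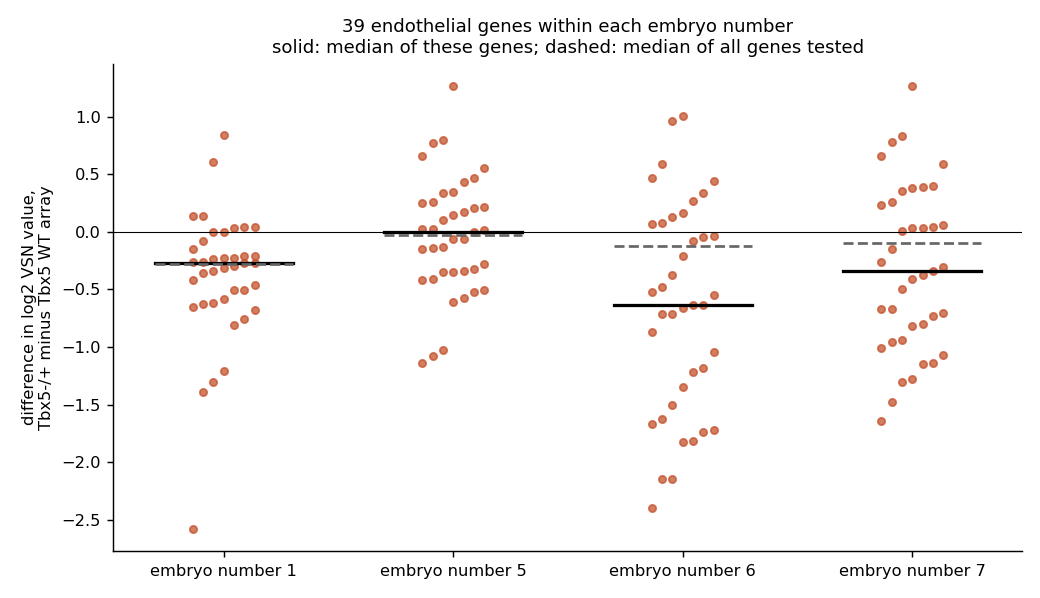
The difference in log2 VSN value between the Tbx5-/+ and the Tbx5 WT array of each embryo number (vertical axis) for the 39 endothelial genes (1 point a gene). The median of the 39 genes (solid line) lay on the median of all genes (dashed line) in numbers 1 and 5 and below it in numbers 6 and 7.

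The mean level of the 39 endothelial genes was 10.95, 10.97, 10.97 and 11.08 in Tbx5 WT and 10.56, 10.93, 10.32 and 10.76 in Tbx5-/+ for numbers 1, 5, 6 and 7. The heterozygous arrays were all below the wild-type arrays, by little in number 5. Set against the mean of all genes on the same array, the endothelial mean stood 0.31 to 0.42 above it in Tbx5 WT, its distance ran from -0.0745 to 0.33 in Tbx5-/+, and the groups then overlapped through number 5. Lists of other cell types were measured on the same scale, among them cardiomyocyte and neural tube genes, although the heart and the neural tube were cut away in the dissection. Primitive erythrocyte genes, 12 of 15 tested, ranged from 10.86 to 12.97 in Tbx5-/+ and from 10.99 to 12.98 in Tbx5 WT. Megakaryocyte and platelet genes (4 of 8 tested) ranged from 7.62 to 8.89 and from 7.57 to 8.91. Of the macrophage and white blood cell markers 4 of 12 were tested, with means of 6.92 to 7.96 and 7.04 to 8.20, and the defining genes Ptprc, Csf1r, Cx3cr1 and Aif1 were not well above background on enough arrays. Mural cell genes, 12 of 12 tested, ranged from 10.79 to 11.59 and from 10.68 to 11.51, and the 8 endocardial genes from 9.23 to 9.80 and from 9.62 to 9.89. Cardiomyocyte genes lay between 13.38 and 14.79 in Tbx5-/+ and between 13.80 and 14.62 in Tbx5 WT. The groups of these 6 lists overlapped, as did those of the foregut endoderm, liver bud and yolk sac, neural tube and somite lists. Yet the 8 tested liver bud and yolk sac genes had a median difference of -0.90, farther from all genes than the endothelial median. All 8 lay below the median of all genes. Without number 1 in both groups the median of this list was -0.046 (all genes -0.087). The 14 genes of the pSHF list, which holds Tbx5 itself, did not overlap between the groups (10.15 to 10.78 against 10.90 to 11.49, median difference -1.06). With the replicate block 8 of the 14 were called lower, beside 8.32% of all genes. Over the 10 of them well above background on all arrays the median difference was -0.29 (all genes -0.11). The part of the makeup of the dissected tissue in the endothelial values was not tested.

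**Figure D5:**
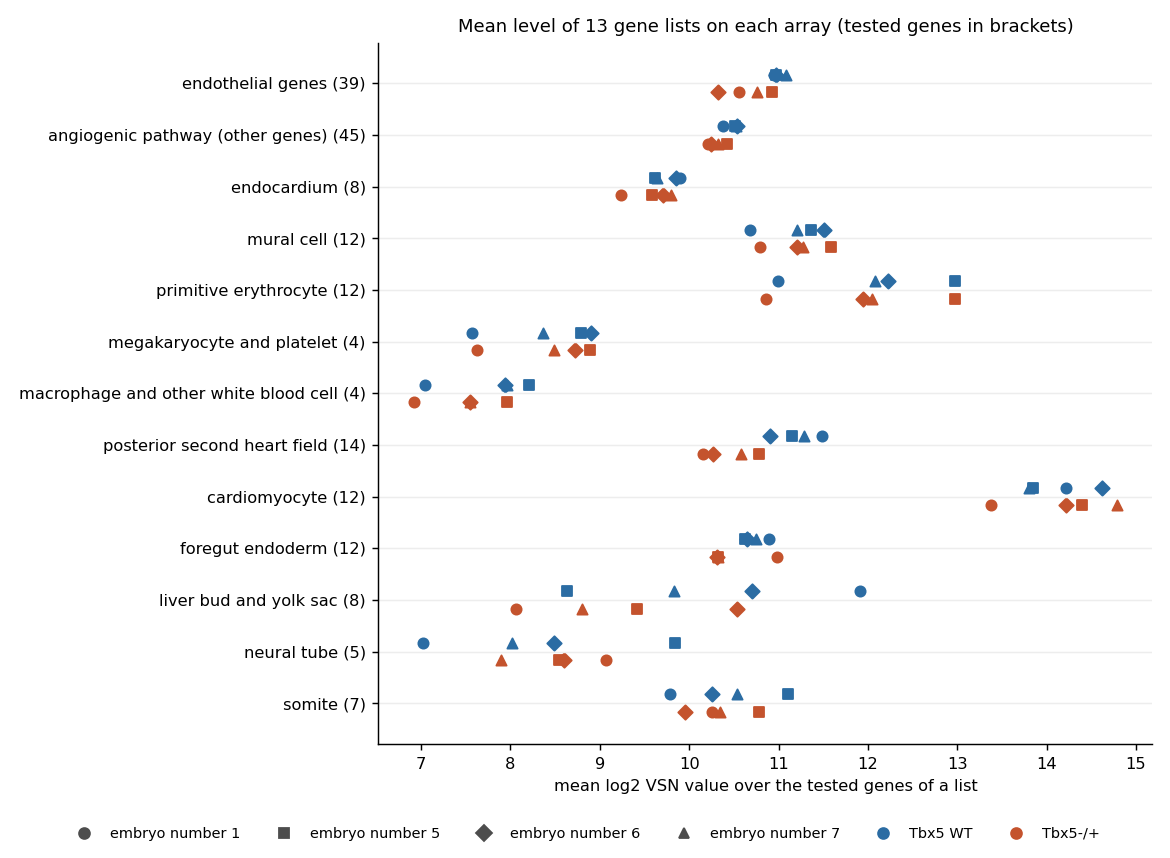
The mean log2 VSN value over the tested genes of each list (number in brackets) on each array, with Tbx5 WT in blue above and Tbx5-/+ in orange below and the marker showing the embryo number. The endothelial genes and the pSHF genes are the lists whose heterozygous arrays all lay below the wild-type arrays, and both erythrocyte and platelet genes were low on the arrays of number 1 in either group.

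Other genes of the angiogenic pathway, a list of 50 symbols of ligands, receptors, Notch and guidance genes apart from the 40, had 45 tested members. Of the 50 symbols 47 were on the array, and the absent Bmp9 and Edg1 are other names of the listed Gdf2 and S1pr1. With limma 0 were called. At an unadjusted p under 0.05, 8 were lower (17.8%, against 15.5% of all genes) and 2 higher (4.44%, against 4.06%), shares near the background, and their median difference was -0.17, close to the -0.13 of all genes. Nrp1, the VEGF and semaphorin coreceptor, averaged 7.91 in Tbx5-/+ and 9.14 in Tbx5 WT, without overlap (difference -1.23, SE 0.263, limma adjusted p = 0.0955, or 0.0334 with the replicate block). Unc5b, a netrin and Robo4 receptor, differed by -1.02 (limma adjusted p = 0.167) and Ephb4, the venous ephrin receptor, by -0.83 without overlap (limma adjusted p = 0.18, or 0.0436 with the block). The other 5 lower ones were Smad6 (-1.19), Plxnd1 (-0.98), Notch1 (-0.85), Ccm2 (-0.73) and Vegfc (-0.55), of which Ccm2 was called with the block (limma adjusted p = 0.0432). On the other side Vegfb, a ligand of Flt1, averaged 13.76 against 12.70 (difference 1.06, limma adjusted p = 0.198), the Notch ligand Jag1 differed by 0.44 (limma adjusted p = 0.226) and Figf, a ligand of Flt4, by 0.49 (limma adjusted p = 0.25), the last without passing the unadjusted limit.

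The base composition of the probes went with the differences to some degree. Over the 39 endothelial genes Spearman's rho between the difference and the GC share of the probe was -0.40, and over all genes it was -0.16; these correlations run across genes of the same 8 arrays, and genes are not independent replicates. Nos3, Eng, Cldn5, Aplnr and Rasip1, all lower in value, had probes of 55% GC, as had Icam2 (0.24) and Egfl7 (-0.31), while the 7 genes with probes of 35% GC were Kdr (-1.12), Sox17 (-1.01), Fli1 (-0.10), Ramp2 (0.14), Cdh5 (0.14), Angpt2 (0.20) and Lyve1 (0.24). The part of GC content in these differences was not tested.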

How the data were processed

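Cy3-labelled cRNA of 8 RNA pools (4 Tbx5-/+, 4 Tbx5 WT) was hybridized to 8 one-colour Agilent whole mouse genome arrays, whose number limits the precision. The deposited scanner output, made with Agilent Feature Extraction 10.5.1.1, gives linear spot intensity, quality marks and probe positions on mm9. A value table of log2 signals was also deposited, which the authors had corrected for background and normalized by VSN. Here each spot's mean intensity was reduced by its median local background, 1115 spots marked as outliers were left out, repeated spots (245 probes) were averaged, and VSN was programmed in R 4.3.3 (90% of probes kept in each of 7 iterations) and put on the log2 scale. Pearson's r with the deposited log2 signals was 0.9999 or more for each array. A probe had to be marked well above background on each of the 4 arrays of either group, and the 20028 such probes were tested two-sided (limma 3.58.1, functions lmFit and eBayes, adjustment by Benjamini-Hochberg over all of them, threshold 0.05), without covariates as in the study's methods. The recovery of array scales by the VSN was checked on 8000 simulated probes. Single genes also had an exact permutation test over 70 assignments. Samples were grouped by the genotype in the labels. The embryo numbers come from the sample titles, and since arrays of the same number correlated in their deviations from the group means in all 4 pairs (0.137 to 0.592), the fit with the number as a block is given beside the endothelial, pathway and Tbx5 results whose call it changes. The 40 genes and the other lists were chosen with earlier results of these data known. Values on every array are given for Pecam1, Cdh5, Kdr, Flt1, Tek, Tie1, Emcn, Eng, Etv2, Tal1, Sox17, Klf2, Nfatc1 and the 4 genes of smallest unadjusted p in each direction, and Sox18, Nos3, Plvap, Cldn5, Stab1, Ets1 and Fli1 were added where their values had been seen. The alternatives were other normalizations, filters, blocks, array weights, a covariate for the signal gap, the mean of a gene's probes and leaving out each array. Leaving out number 1 in both groups was chosen after seeing the data.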

Additional observations from a re-analysis of the deposited data

Results flagged for a closer look

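In a group of 4 arrays, 1 array stood far from the other 3 in 11 of 72 groups of values examined (23 genes and 13 lists, by Dixon's test at the 95% level); chance alone marks about 1 group in 20. The heterozygous array of number 1 was the one apart for 5 of the 11: Tek at 10.05 (the others 10.45 to 10.54), Etv2 at 10.85 (9.70 to 9.84), Robo4 at 10.97 (12.93 to 13.10), Icam2 at 11.54 (12.31 to 12.45) and the mean of the foregut endoderm genes at 10.98 (10.31 to 10.32). The wild-type array of number 1 was apart for Tek at 11.44 (10.59 to 10.61) and for Fli1 at 12.25 (13.30 to 13.31). The wild-type array of number 6 was apart for Sox18 at 10.13 (10.74 to 10.83) and Nos3 at 9.96 (10.32 to 10.35). The wild-type array of number 5 was apart for Etv2 at 9.44 (10.17 to 10.24), and that of number 7 for the mean of the endothelial genes at 11.08 (10.95 to 10.97).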

How the results depend on the processing

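The number of endothelial genes called on any probe, of 39, was 0 without a block, 8 with the replicate block (8 lower), 23 with array weights (17 lower, 6 higher) and 11 without number 1 in both groups (9 lower, 2 higher), and leaving out 1 array gave 0 to 11, the 11 (9 lower, 2 higher) without the heterozygous array of number 1. On brightest probes the shares were near those of all genes: 28.2% lower and 15.4% higher with array weights (all genes 23.2% and 15.3%), 10.3% and 5.13% without that array (9.05% and 8.53%), and 10.3% and 5.13% without number 1 in both groups (7.1% and 7.43%). Counting every endothelial probe, 39.6% were called lower with array weights (all probes 27.5%). Lower calls made 18.9% without that array (all probes 12.2%) and 20.8% without number 1 in both groups (9.55%). The probes counted include some tested only through the wild-type group. The count of all probes called went from 0 to 2247 with the block, 8114 with array weights and 3154 without number 1, and 0 to 3839 over the arrays left out (212 without the wild-type array of number 1, 3839 without the heterozygous one). For the angiogenic pathway list the calls on any probe were 3, 19 and 4 of 45 genes (0 to 7 over the arrays left out). By probe they were 5, 24 and 5 of 58, beside the counts of all 20028 probes just given. For the other cell type lists the gene calls were 12, 34 and 15 (0 to 18). Lower endothelial probes at an unadjusted p under 0.05 numbered 19 of 53 (all probes 3722 of 20028). They numbered 9 with 75th percentile scaling (all probes 1725), 11 with quantile normalization (1878) and 11 with array median centring (1329). Over the arrays left out they numbered 12 to 23, the 12 without the wild-type array of number 7 (all probes 2057). Higher ones numbered 0 (all probes 671), but 2, 1 and 1 under those scalings (all probes 3118, 1912 and 3253). They numbered 1 without a filter on dim probes (1314 of 41173), 1 with the replicate block (1040) and 6 with array weights (3388). With the gap covariate 2 were higher (all probes 290), without number 1 there were 4 (3005), and over the arrays left out 0 to 6. The endothelial median minus that of all genes (-0.24) was -0.42 without the filter, -0.44 with the mean of a gene's probes and -0.232 to -0.0818 over the arrays left out, and that of the pathway list (-0.037) was 0.0401 with quantile normalization, -0.25 without the filter and -0.0574 to 0.0285 over the arrays left out. The scalings moved the median of all genes from -0.13 to 0.18 (75th percentile), 0.027 (quantile) and 0.19 (median centring), and the lower share of all probes at an unadjusted p under 0.05 from 84.7% to 35.6%, 49.6% and 29%.

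Differences of 24 of the 39 genes kept their sign in every setting run, and 15 turned in at least 1. With 75th percentile scaling Egfl7 became 0.045, Ets1 0.076, Fli1 0.26, Lmo2 0.29 and Mmrn2 0.18, with median centring these were 0.0072, 0.021, 0.22, 0.29 and 0.14, and with quantile normalization Lmo2 was 0.28. With the gap covariate Cd34 became -0.11, Cdh5 -0.014, Emcn -0.035, Erg -0.18, Klf2 -0.33, Lyve1 -0.41, Robo4 -0.22 and Lmo2 0.17. With array weights Etv2 became -0.13, Fli1 0.015, Lmo2 0.086 and Mmrn2 0.022, with the mean of a gene's probes Cdh5 -0.17 and Klf2 -0.27, with the deposited values Esam -0.0070, and without number 1 in both groups Etv2 -0.15. Over the arrays left out, Apln ranged from -0.15 to 0.45, Erg from -0.068 to 0.25, Esam from -0.080 to 0.16, Etv2 from -0.23 to 0.16, Fli1 from -0.37 to 0.084, Klf2 from -0.064 to 0.51, Lmo2 from -0.13 to 0.14 and Lyve1 from -0.094 to 0.95. The cause of these changes was not tested.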
